A study of Arabidopsis thaliana and Arabidopsis thaliana x Arabidopsis arenosa with 9 samples.

Results

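The core cell cycle genes of Arabidopsis thaliana described here are 50 loci of the count table, which lists 33602 loci in all. They were chosen by name, though with earlier results of these data known, and all 50 were found in the table. They comprise 8 A-type cyclins, 9 B-type cyclins, 10 D-type cyclins, 5 cyclin-dependent kinases (CDKs), 7 KIP-RELATED PROTEIN (KRP) inhibitors with the kinase WEE1, 7 genes of the retinoblastoma and E2F pathway, and 3 CCS52 activators. The counts come from whole seeds taken 3 days after pollination, from reciprocal crosses between the accessions Col-0 and C24 that served as controls for crosses to another species. In ColA9 X C24 the seed parent is a male-sterile Col-0 line and the pollen parent is wild-type C24. In C24A9 X Col-0 the seed parent is a male-sterile C24 line and the pollen parent is wild-type Col-0. Both male-sterile lines carried their sterility construct in the hemizygous state. Each cross has 2 libraries, made from the pooled seeds of many siliques. The methods place a treatment with duplex-specific nuclease, an enzyme that depletes abundant cDNA, on replicate 2 of both crosses.

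A cell divides when a CDK pairs with a cyclin. D-type cyclins act in G1 with A-type CDK and inactivate the retinoblastoma protein RBR1, which frees E2F factors to switch on genes of DNA replication. A-type cyclins act mainly in S phase and G2, and B-type cyclins with the plant-specific B-type CDKs drive mitosis. KRP proteins inhibit CDK complexes, and CCS52 proteins direct the anaphase-promoting complex to destroy mitotic cyclins. When DNA replicates without mitosis, the cell endoreduplicates and becomes polyploid. A young Arabidopsis seed holds an endosperm whose nuclei divide without cell walls, a small embryo, and a seed coat that is wholly maternal. The genotype of the seed coat therefore changes with the direction of the cross, and the direction of the cross and the genotype of the seed parent cannot be told apart in this design.

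The libraries held 6498145 and 3538335 counted reads in ColA9 X C24, replicates 1 and 2, and 6101597 and 5521691 in C24A9 X Col-0. The members took 0.0512% and 0.0801% of the reads in ColA9 X C24, and 0.0287% and 0.0602% in C24A9 X Col-0. Levels are given as counts per 1000000 of the TMM-scaled library (CPM), and between genes as CPM per kilobase (kb) of the longest annotated transcript. Replicate 2 of C24A9 X Col-0 stood apart: it had a read on 64.4% of the loci that were at 0 in the other 3 libraries, against 1.89% to 4.63% for the same share in each of the others. The cross contrast is also given without it. In whole seeds, fewer cells of a type and less RNA per cell cannot be told apart. Markers of the seed compartments differed between the libraries. The summed CPM of 8 seed coat and integument genes was 18378 and 6556 in ColA9 X C24, against 47080 and 11699 in C24A9 X Col-0. TT4 alone was at 11019 and 1322 CPM in ColA9 X C24, against 31917 and 5522 CPM in C24A9 X Col-0. Within both replicate numbers 6 of the 8 were lower in ColA9 X C24 and 2 were higher. These 2 were STK, at 735 and 662 against 214 and 333 CPM, and TTG2, at 66.5 and 69.4 against 49.6 and 59.7 CPM. For 9 endosperm genes the sum was 110 and 137 in ColA9 X C24, against 290 and 201 in C24A9 X Col-0. SUC5 alone was at 60.7 and 37.3 CPM in ColA9 X C24, against 202 and 57.5 CPM in C24A9 X Col-0. Of the 8 endosperm genes tested, 6 were lower in ColA9 X C24 within both replicate numbers and 0 higher. For 3 photosynthesis genes of green tissue the sum was 793 and 308 against 2037 and 1108. The sum of 5 embryo genes was 161 and 169 in ColA9 X C24, against 176 and 101 in C24A9 X Col-0. ATML1 held most of that sum in each library, at 158 and 141 against 172 and 80.8 CPM. In the same order LEC1 was at 1.23 and 15.3 against 3.08 and 14.4 CPM. WOX8 was at 1.38 and 11.9 against 0.712 and 2.92 CPM, so both were higher in replicate 2 of each cross. The sum of 4 pollen genes was 1.07 and 2.02 against 0.474 and 14.3, highest in the library that stood apart, with the sperm cell regulator DUO1 at 0 reads in all 4. In edgeR's fit with the replicate number as a block, 4.42% of all genes tested were called lower in ColA9 X C24 and 2.24% higher. In that fit 2 of the 8 seed coat genes were called lower and 1 higher. Of the 8 endosperm genes tested 1 was called lower, as were all 3 green tissue genes. The part of these differences in the values of the members was not tested.

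Of the 50 members, 44 reached 10 counts in 2 or more libraries and entered the test between crosses. The other 6, the A-type cyclin AT5G25380, the B-type cyclins AT2G17620, AT4G35620 and AT1G16330 and the D-type cyclins CYCD6;1 (AT4G03270) and AT5G02110, had between 0 and 17 counts in each library. A read or more was found for 48 and 50 members in ColA9 X C24, and for 44 and 50 in C24A9 X Col-0. In edgeR's quasi-likelihood test without a block, 0 members and 0 of the 16779 genes tested had an adjusted p under 0.05 (0% called), while 2 members and 7.46% of all genes had an unadjusted p under 0.05. In DESeq2 without a block, 1 member passed. The shared treatment of replicate 2 pairs the libraries, and the difference of replicate 2 minus replicate 1 correlated between the crosses with r = 0.561 across all genes tested but with r = 0.145 across the 44 members. In the blocked fit 2 members passed, the D-type cyclin CYCD1;1 (AT1G70210) higher in ColA9 X C24 and CCS52B lower, beside 6.66% of all genes called (2.24% higher and 4.42% lower, with 20% at an unadjusted p under 0.05). The median log2 fold change of ColA9 X C24 over C24A9 X Col-0 was 0.25 over the members and -0.01 over all genes tested. A positive value was found for 31 of the 44 members, beside 8215 of the 16779 genes tested. With 1 library left out at a time the median over the members ranged between 0.02, without replicate 2 of ColA9 X C24, and 0.74, without replicate 2 of C24A9 X Col-0.

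Cyclins and kinases are named by their locus in the count table, with the symbol added once for those whose values are described, and the plot of levels sets every symbol beside its locus.

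**Figure D1:**
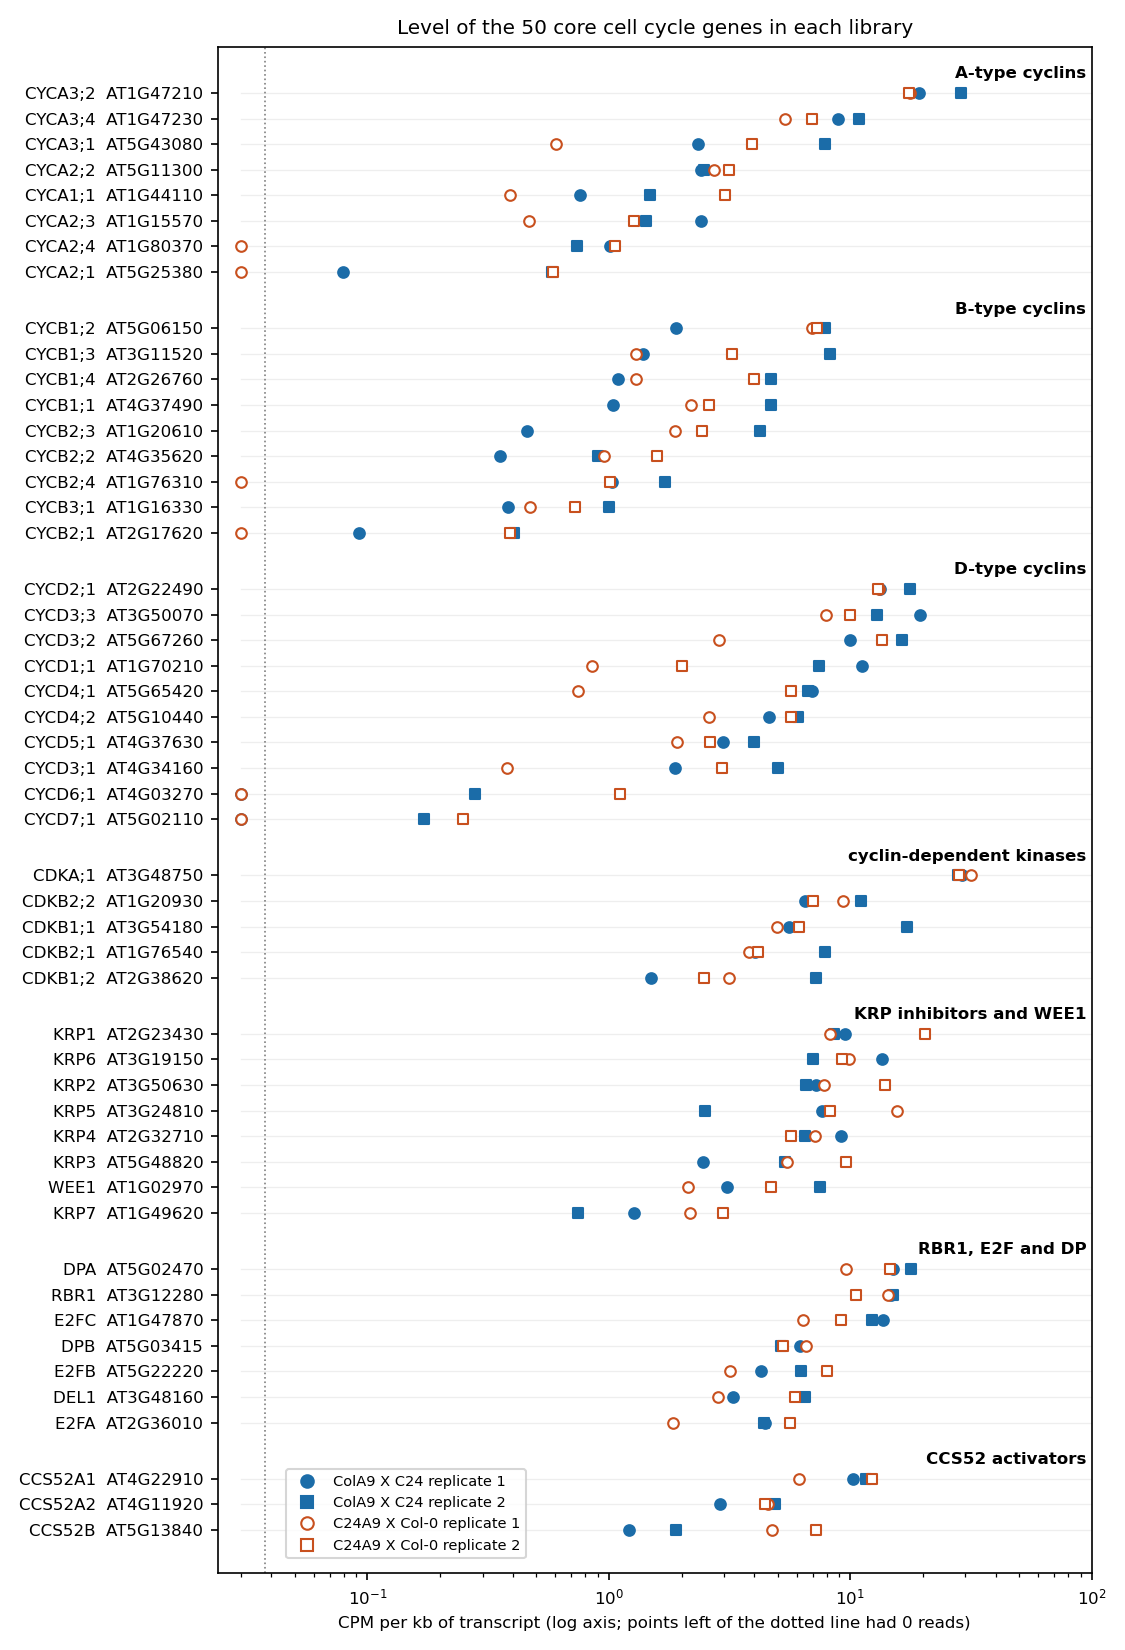
Level of each of the 50 members in the 4 libraries, as CPM per kb of the longest transcript on a log axis, ordered within families by the mean level, with symbol and locus beside each. Filled blue symbols are ColA9 X C24 and open orange symbols are C24A9 X Col-0, circles are replicate 1 and squares replicate 2, and points left of the dotted line had 0 reads. The kinase CDKA;1 (AT3G48750) sits between 27.9 and 31.5 CPM per kb in the 4 libraries, above every other member except the highest A-type cyclin in replicate 2 of ColA9 X C24.

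The D-type cyclins, which couple growth signals to the start of the cycle, were the family with the most members on 1 side. All 8 D-type cyclins tested were higher in ColA9 X C24 within both replicate numbers, where 32.7% of all genes were, and in 5 of them both libraries of ColA9 X C24 lay above both of C24A9 X Col-0, where 19.6% of all genes did. Their median log2 fold change was 0.76. The sum over the 10 D-type cyclins was 70.4 and 76.6 CPM per kb in ColA9 X C24, against 30.4 and 56.7 in C24A9 X Col-0. Of the 8, 1 was called, as higher in the blocked fit, beside 2.24% of all genes. Without replicate 1 of C24A9 X Col-0, the library with the fewest member reads, 6 of the 8 kept a positive log2 fold change, and without replicate 2 of C24A9 X Col-0 all 8 were positive.

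The D-type cyclin CYCD1;1 (chr1:26439556-26443007, plus strand, 6 exons) showed the largest log2 fold change of the members tested. It had 182 and 83 counts in ColA9 X C24, against 9 and 31 in C24A9 X Col-0. These are 28.0 and 18.6 CPM in ColA9 X C24, against 2.13 and 5.03 CPM in C24A9 X Col-0. Both libraries of ColA9 X C24 were above both of the reciprocal cross, by 3.43 on the log2(CPM + 0.5) scale in replicate 1 and by 1.79 in replicate 2. On that scale replicate 2 minus replicate 1 was -0.57 in ColA9 X C24 and 1.07 in C24A9 X Col-0, so the replicates moved in opposite directions. The log2 fold change was 2.67 ± 0.56 (SE) with an adjusted p of 0.351 in edgeR's quasi-likelihood test without the block, and 2.67 ± 0.49 with an adjusted p of 0.00657 with it. With library totals in place of TMM, the blocked test did not call it. A locus on the opposite strand, AT1G70209, overlaps its end by 144 bases, and had 0 counts in 3 libraries and 2 in replicate 2 of C24A9 X Col-0.

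CYCD2;1 (AT2G22490) and CYCD3;3 (AT3G50070) had the highest levels of the family. AT2G22490, whose transcript responds to sucrose, was at 13.3 and 17.7 CPM per kb in ColA9 X C24, against 13.1 and 13.0 in C24A9 X Col-0. In replicate 1 the crosses differed by only 0.03 on the log2(CPM + 0.5) scale. AT3G50070 was at 28.1 and 18.6 CPM in ColA9 X C24, against 11.4 and 14.3 CPM in C24A9 X Col-0 (log2 fold change 0.86 ± 0.40 (SE), adjusted p = 0.741 in edgeR's test). The other CYCD3 genes, which like it maintain division in growing organs and respond to cytokinin, overlapped between the crosses. CYCD3;1 (AT4G34160) was at 3.53 and 9.43 CPM in ColA9 X C24, against 0.712 and 5.52 CPM in C24A9 X Col-0. CYCD3;2 (AT5G67260) had 97 and 108 counts in ColA9 X C24, against 18 and 124 in C24A9 X Col-0. In both of them replicate 1 of C24A9 X Col-0 was the lowest library. The same library set most of the difference of CYCD4;1 (AT5G65420), which was at 13.4 and 12.8 CPM in ColA9 X C24, against 1.42 and 10.9 CPM in C24A9 X Col-0. Its log2 fold change was 1.06 ± 0.86, from 6 counts in that library and 57 to 87 in the others. CYCD4;2 (AT5G10440) overlapped, at 6.30 and 8.31 CPM in ColA9 X C24, against 3.56 and 7.79 CPM in C24A9 X Col-0. CYCD5;1 (AT4G37630) was at 5.53 and 7.41 CPM in ColA9 X C24, against 3.56 and 4.87 CPM in C24A9 X Col-0, without overlap. AT4G03270, known from the divisions that form the root's ground tissue, had 0 and 2 counts in ColA9 X C24, against 0 and 11 in C24A9 X Col-0, and AT5G02110, known from the guard cell lineage, had 0 and 1 counts against 0 and 2. A count of 0 allowed up to 0.461 CPM in replicate 1 of ColA9 X C24 and 0.712 CPM in replicate 1 of C24A9 X Col-0, counting error alone considered.

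**Figure D2:**
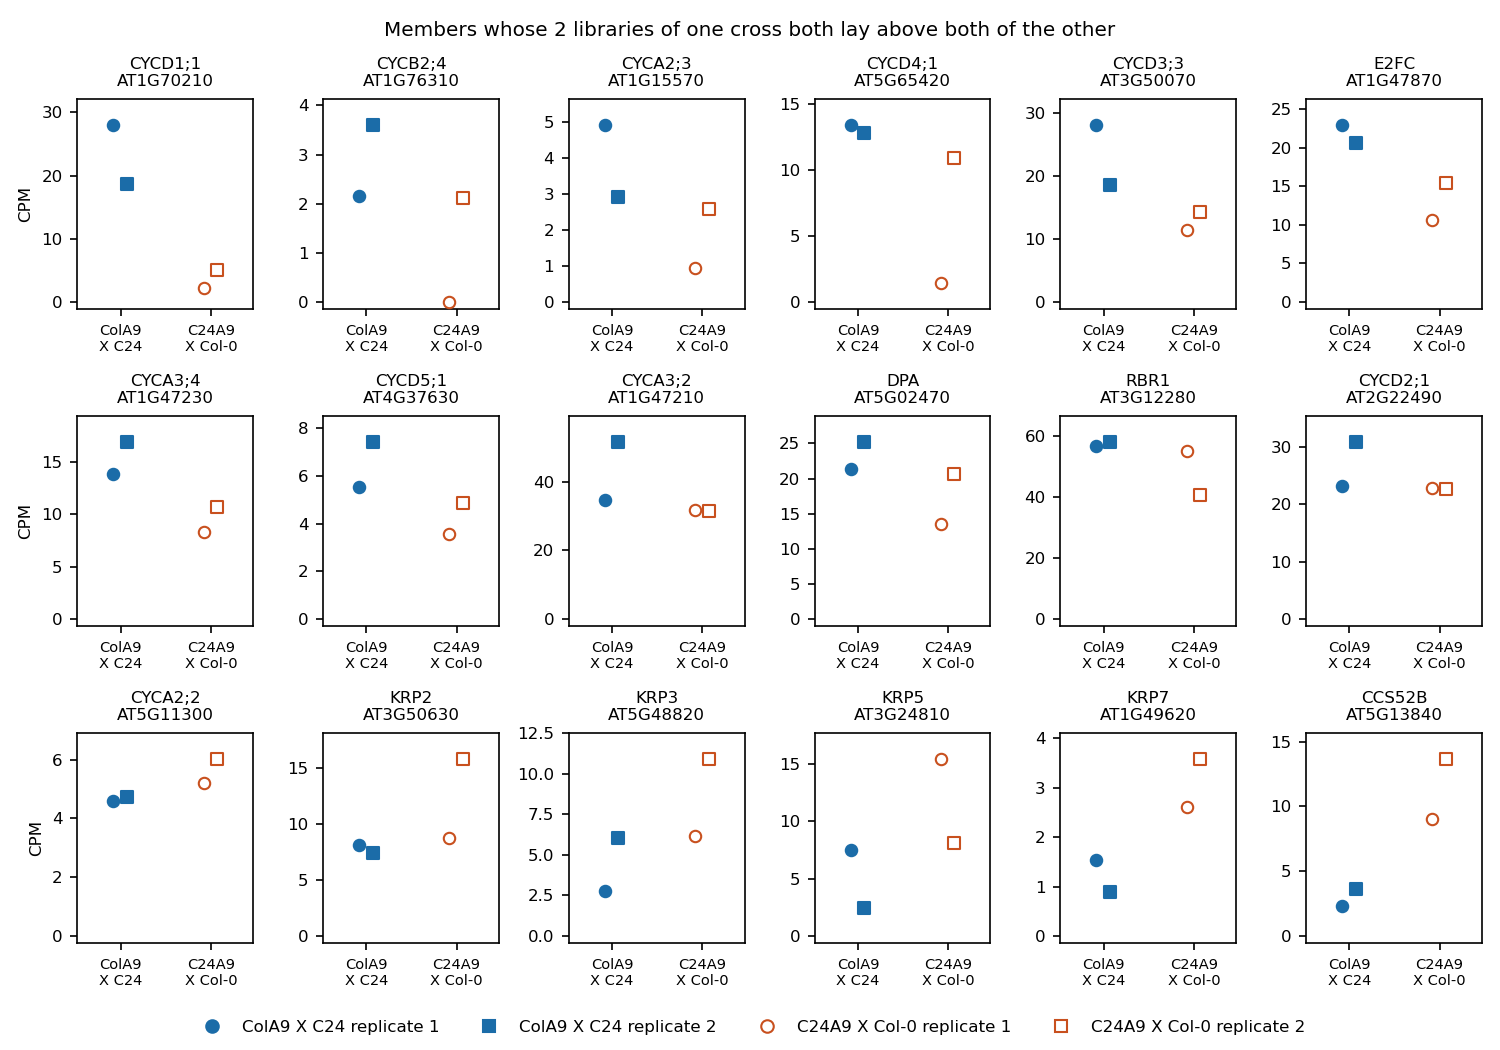
CPM in each library for the 18 tested members whose libraries of 1 cross both lay above both of the other, ordered by log2 fold change, each panel on its own linear axis. ColA9 X C24 is on the left (filled) and C24A9 X Col-0 on the right (open). In 12 members ColA9 X C24 was higher and in 6 lower, beside 19.6% and 17.2% of all genes. The gap between the crosses is widest for AT1G70210 and CCS52B and narrow for AT2G22490, AT1G76310, RBR1 and KRP2.

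Among the A-type cyclins, the 3 CYCA3 genes, which act around the entry into S phase, held most of the family's reads in every library. CYCA3;2 (AT1G47210) was the highest, at 19.3 and 28.7 CPM per kb in ColA9 X C24, against 17.7 and 17.5 in C24A9 X Col-0. CYCA3;4 (AT1G47230) followed at 8.92 and 10.9 CPM per kb in ColA9 X C24, against 5.36 and 6.92 in C24A9 X Col-0, below AT1G47210 in each library. Its log2 fold change was 0.68 ± 0.41 (SE, adjusted p = 0.81 in edgeR's test). Both were without overlap between the crosses. Of the CYCA2 genes, which restrain endoreduplication together with the kinase CDKB1;1 (AT3G54180), CYCA2;3 (AT1G15570) was at 4.91 and 2.92 CPM in ColA9 X C24, against 0.949 and 2.60 CPM in C24A9 X Col-0. CYCA2;2 (AT5G11300) lay on the other side, at 4.61 and 4.72 CPM in ColA9 X C24, against 5.22 and 6.01 CPM in C24A9 X Col-0. AT1G80370 had 12 and 6 counts in ColA9 X C24, against 0 and 12 in C24A9 X Col-0, and AT5G25380 had 1 and 5 counts against 0 and 7. CYCA1;1 (AT1G44110), expressed around mitosis, overlapped, at 1.38 and 2.69 CPM in ColA9 X C24, against 0.712 and 5.52 CPM in C24A9 X Col-0. Of the 7 A-type cyclins tested, 5 had a positive log2 fold change, with a median of 0.63, and 0 were called in edgeR's test with or without the block.

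The B-type cyclins, whose mRNA accumulates in cells entering mitosis, were low, and their sum did not separate the crosses. It was 7.73 and 33.7 CPM per kb in ColA9 X C24, against 15.0 and 23.3 in C24A9 X Col-0, so that the libraries of ColA9 X C24 were both the lowest and the highest. CYCB1;2 (AT5G06150) was the highest of the family by mean, at 1.90 and 7.83 CPM per kb in ColA9 X C24, against 6.93 and 7.30 in C24A9 X Col-0. CYCB1;3 (AT3G11520) was at 1.39 and 8.27 CPM per kb in ColA9 X C24, against 1.29 and 3.23 in C24A9 X Col-0. CYCB1;4 (AT2G26760) had 13 and 38 counts in ColA9 X C24, against 10 and 45 in C24A9 X Col-0. CYCB1;1 (AT4G37490), the reporter gene of choice for cells in G2 and mitosis, was at 1.69 and 7.63 CPM in ColA9 X C24, against 3.56 and 4.22 CPM in C24A9 X Col-0. In CPM, replicate 2 of ColA9 X C24 was the highest library in each of these 4 genes. For AT2G26760 it was at 8.53 CPM, against 7.31 CPM in replicate 2 of C24A9 X Col-0, which had more counts. CYCB2;3 (AT1G20610) was at 0.921 and 8.53 CPM in ColA9 X C24, against 3.80 and 4.87 CPM in C24A9 X Col-0, and 14.5% of the windows of 80 bases in its transcript also lie in AT1G20590, which had 0 and 3 counts in ColA9 X C24 and 2 and 6 in C24A9 X Col-0. CYCB2;4 (AT1G76310) had 14 and 16 counts in ColA9 X C24, against 0 and 13 in C24A9 X Col-0 (log2 fold change 1.34 ± 1.42 (SE), adjusted p = 0.894 in edgeR's test). It was the only tested B-type cyclin without overlap, though only by 2.15 against 2.11 CPM in the nearest libraries. AT2G17620 had 1 and 3 counts in ColA9 X C24, against 0 and 4 in C24A9 X Col-0, AT4G35620 had 4 and 7 counts against 7 and 17 and AT1G16330 had 5 and 9 counts against 4 and 9. The ranges of the CYCB1 genes and AT1G20610 overlapped per kilobase, so their order in the family is not resolved.

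The sequence before the transcript start was searched for motifs known from mitotic and S phase genes. Promoters of mitotic genes in plants often hold the mitosis-specific activator element, read by MYB3R proteins, whose core is AACGG and whose longer form is CNAACGG. In the 250 bases before the annotated start, with both strands searched, CNAACGG was found in 6 of the 9 B-type cyclins (66.7%) and in 4.52% of 26711 nuclear protein-coding loci of the table. Over the 50 members, 8 held it, the others being AT1G44110 and DPA. The shorter AACGG, which every CNAACGG contains, was in 38% of the members and in 20.7% of all loci. An E2F site (TTTCCCGC, TTTCGCGC, TTTGCCGC or TTTGGCGC) was found in 2 members, AT3G50070 and RBR1 (4%), and in 1.4% of all loci. The promoters of 3 CYCB1 genes, which carry the element, and of AT1G70210, the member called higher, are printed 5′ to 3′ on the gene's strand in TAIR10.1, with AACGG and its reverse complement CCGTT in capitals. AT5G06150 has 4 matches to CNAACGG, AT3G11520 has 2 and AT4G37490 has 1, while AT1G70210 has no match to any of these motifs in this window. A match describes letters in the sequence and is not a measured site.
AT4G37490, chr4:17624309-17624558, minus strand: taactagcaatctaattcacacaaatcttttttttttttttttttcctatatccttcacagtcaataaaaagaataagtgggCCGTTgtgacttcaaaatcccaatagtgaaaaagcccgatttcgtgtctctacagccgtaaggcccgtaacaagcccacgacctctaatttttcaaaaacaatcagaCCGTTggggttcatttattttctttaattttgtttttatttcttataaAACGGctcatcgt
AT5G06150, chr5:1861704-1861953, minus strand: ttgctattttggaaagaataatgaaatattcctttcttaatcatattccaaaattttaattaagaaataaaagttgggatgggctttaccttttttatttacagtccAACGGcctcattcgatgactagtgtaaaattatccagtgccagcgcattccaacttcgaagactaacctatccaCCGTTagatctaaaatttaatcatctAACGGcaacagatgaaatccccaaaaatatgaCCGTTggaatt
AT3G11520, chr3:3627274-3627523, minus strand: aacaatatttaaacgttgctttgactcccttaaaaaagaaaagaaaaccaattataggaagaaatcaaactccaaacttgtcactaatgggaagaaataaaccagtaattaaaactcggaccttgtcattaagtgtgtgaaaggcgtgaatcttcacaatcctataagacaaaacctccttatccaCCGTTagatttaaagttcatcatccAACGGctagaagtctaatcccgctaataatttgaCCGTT
AT1G70210, chr1:26439306-26439555, plus strand: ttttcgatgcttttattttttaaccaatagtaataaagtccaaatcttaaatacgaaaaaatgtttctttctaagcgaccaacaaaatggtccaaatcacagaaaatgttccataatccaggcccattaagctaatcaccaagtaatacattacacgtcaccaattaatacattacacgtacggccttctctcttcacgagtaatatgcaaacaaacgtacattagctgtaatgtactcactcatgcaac

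AT3G48750, the main kinase of the cycle and the partner of D-type cyclins, had the highest mean level per kilobase of the 50 members. It varied little between the libraries. It was at 43.6 and 41.8 CPM in ColA9 X C24, against 47.2 and 42.4 CPM in C24A9 X Col-0 (log2 fold change -0.07 ± 0.32 (SE), adjusted p = 0.977 in edgeR's test). With library totals in place of TMM its log2 fold change was 0.25, where the median of all genes moved by 0.30. CDKB2;2 (AT1G20930), which acts in G2 and mitosis, was next in the family, at 6.50 and 11.1 CPM per kb in ColA9 X C24, against 9.37 and 6.99 in C24A9 X Col-0. It did not stand apart from AT3G54180, at 5.57 and 17.1 CPM per kb in ColA9 X C24, against 4.99 and 6.12 in C24A9 X Col-0. CDKB2;1 (AT1G76540) was at 5.53 and 10.8 CPM in ColA9 X C24, against 5.22 and 5.68 CPM in C24A9 X Col-0, and CDKB1;2 (AT2G38620) at 2.15 and 10.3 CPM in ColA9 X C24, against 4.51 and 3.57 CPM in C24A9 X Col-0. Of the windows of 80 bases in AT2G38620, 10.3% lie in the opposite-strand locus AT2G38630. That locus had 34 and 64 counts in ColA9 X C24, against 16 and 94 in C24A9 X Col-0. AT1G20930 shares 8.6% of its windows with the opposite-strand locus AT1G20925, which had 0 and 0 counts against 0 and 4. All 5 kinases overlapped between the crosses. Replicate 2 of ColA9 X C24 was the highest library for each of the 4 B-type CDKs, as it was for the CYCB1 genes.

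The KRP inhibitors included 4 genes whose libraries were lower in ColA9 X C24 without overlap, where 17.2% of all genes were. The same 4 were lower within both replicate numbers, as were 32.5% of all genes. None of the KRP genes was called in edgeR's test, with or without the block (0 of 7, with 0 at an unadjusted p under 0.05 without the block). KRP5, reported in Arabidopsis to act in endoreduplicating cells, was at 7.53 and 2.47 CPM in ColA9 X C24, against 15.4 and 8.12 CPM in C24A9 X Col-0 (log2 fold change -1.21 ± 0.69 (SE), adjusted p = 0.802). KRP7 was at 1.54 and 0.898 CPM in ColA9 X C24, against 2.61 and 3.57 CPM in C24A9 X Col-0. KRP3 was at 2.76 and 6.06 CPM in ColA9 X C24, against 6.17 and 10.9 CPM in C24A9 X Col-0. KRP2 was at 8.14 and 7.41 CPM in ColA9 X C24, against 8.78 and 15.7 CPM in C24A9 X Col-0, so that the gap in replicate 1 was small. The value of KRP5 was -2.23 without replicate 1 of ColA9 X C24 and -0.64 without its replicate 2. The log2 fold changes were -1.32 ± 0.89 for KRP7, -0.97 ± 0.65 for KRP3 and -0.66 ± 0.48 for KRP2.

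KRP1 had the highest mean level of the family, at 9.54 and 8.60 CPM per kb in ColA9 X C24, against 8.28 and 20.3 in C24A9 X Col-0. Its log2 fold change of -0.66 ± 0.53 (SE) became 0.13 without replicate 2 of C24A9 X Col-0. KRP6 was at 13.5 and 7.03 CPM per kb in ColA9 X C24, against 9.85 and 9.28 in C24A9 X Col-0, and overlapped. KRP4 was at 21.8 and 15.5 CPM in ColA9 X C24, against 17.1 and 13.6 CPM in C24A9 X Col-0 (log2 fold change 0.28 ± 0.39). Its value is uncertain, since 36.6% of its windows of 80 bases lie in the transcript of AT2G32720 on the opposite strand, a locus with 2405 and 1021 counts in ColA9 X C24 and 1810 and 1468 in C24A9 X Col-0. Whether reads were counted by strand is not given in the sources used here. WEE1, which holds CDKs inactive when replication is disturbed, was at 5.84 and 14.1 CPM in ColA9 X C24, against 4.03 and 8.93 CPM in C24A9 X Col-0, and overlapped.

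In the retinoblastoma and E2F pathway, 5 of 7 genes had a positive log2 fold change and 0 were called with or without the block. RBR1, the retinoblastoma homologue, was at 56.7 and 57.9 CPM in ColA9 X C24, against 55.0 and 40.7 CPM in C24A9 X Col-0 (log2 fold change 0.26 ± 0.35 (SE), adjusted p = 0.914 in edgeR's test). DPA, a dimer partner of E2F factors, was at 15.1 and 17.8 CPM per kb in ColA9 X C24, against 9.56 and 14.6 in C24A9 X Col-0. Its range overlapped that of RBR1, at 14.7 and 15.0 CPM per kb in ColA9 X C24, against 14.3 and 10.6 in C24A9 X Col-0, so their order is not resolved. E2FC, a repressor of the E2F family, was at 22.9 and 20.7 CPM in ColA9 X C24, against 10.7 and 15.4 CPM in C24A9 X Col-0 (log2 fold change 0.73 ± 0.38, adjusted p = 0.778). These 3 genes were higher in ColA9 X C24 without overlap, as were 19.6% of all genes. The activator E2FA was at 8.60 and 8.53 CPM in ColA9 X C24, against 3.56 and 10.9 CPM in C24A9 X Col-0, and E2FB at 8.60 and 12.6 CPM in ColA9 X C24, against 6.41 and 16.1 CPM in C24A9 X Col-0. DEL1, an atypical E2F factor that represses CCS52A2, was at 5.99 and 11.9 CPM in ColA9 X C24, against 5.22 and 10.9 CPM in C24A9 X Col-0, and 13% of its windows are shared with the abundant opposite-strand locus AT3G48170. DPB was at 11.2 and 9.43 CPM in ColA9 X C24, against 11.9 and 9.58 CPM in C24A9 X Col-0. These 4 overlapped, with log2 fold changes between -0.10 and 0.23.

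Of the CCS52 genes, CCS52B (AT5G13840, chr5:4468508-4471466, minus strand, 7 exons) was the member called as lower in ColA9 X C24. It had 15 and 16 counts in ColA9 X C24, against 38 and 84 in C24A9 X Col-0. These are 2.30 and 3.59 CPM in ColA9 X C24, against 9.01 and 13.6 CPM in C24A9 X Col-0. The crosses differed by -1.76 on the log2(CPM + 0.5) scale in replicate 1 and by -1.79 in replicate 2. The log2 fold change was -1.95 ± 0.56 (SE) with an adjusted p of 0.5 in edgeR's quasi-likelihood test without the block, and -1.94 ± 0.51 with an adjusted p of 0.0384 with it. It was not called with the block in DESeq2, with library totals, or among genes with 20 counts in all 4 libraries, a filter it does not pass. The gene overlaps NACA3 on the opposite strand by 190 bases, a locus with 593 and 129 counts in ColA9 X C24 and 622 and 403 in C24A9 X Col-0, but 0 windows of 80 bases in its transcript lie in that of NACA3. Of its windows, 16.3% lie in AT5G02105, also on the opposite strand, which has no line in the count table.

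CCS52A1 and CCS52A2, which promote the exit from division and endoreduplication, did not separate the crosses. CCS52A1 was at 22.0 and 24.7 CPM in ColA9 X C24, against 13.0 and 26.3 CPM in C24A9 X Col-0 (log2 fold change 0.24 ± 0.44 (SE)). CCS52A2 was at 5.68 and 9.66 CPM in ColA9 X C24, against 9.01 and 8.77 CPM in C24A9 X Col-0 (log2 fold change -0.22 ± 0.50). Per kilobase CCS52A1 was the highest of the 3 in each library, at 10.3 and 11.6 CPM per kb in ColA9 X C24, against 6.11 and 12.3 in C24A9 X Col-0. CCS52A2 was above CCS52B in ColA9 X C24 and below it in C24A9 X Col-0. In replicate 1 of C24A9 X Col-0 both had 38 counts, so their order there follows from transcript length alone.

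**Figure D3:**
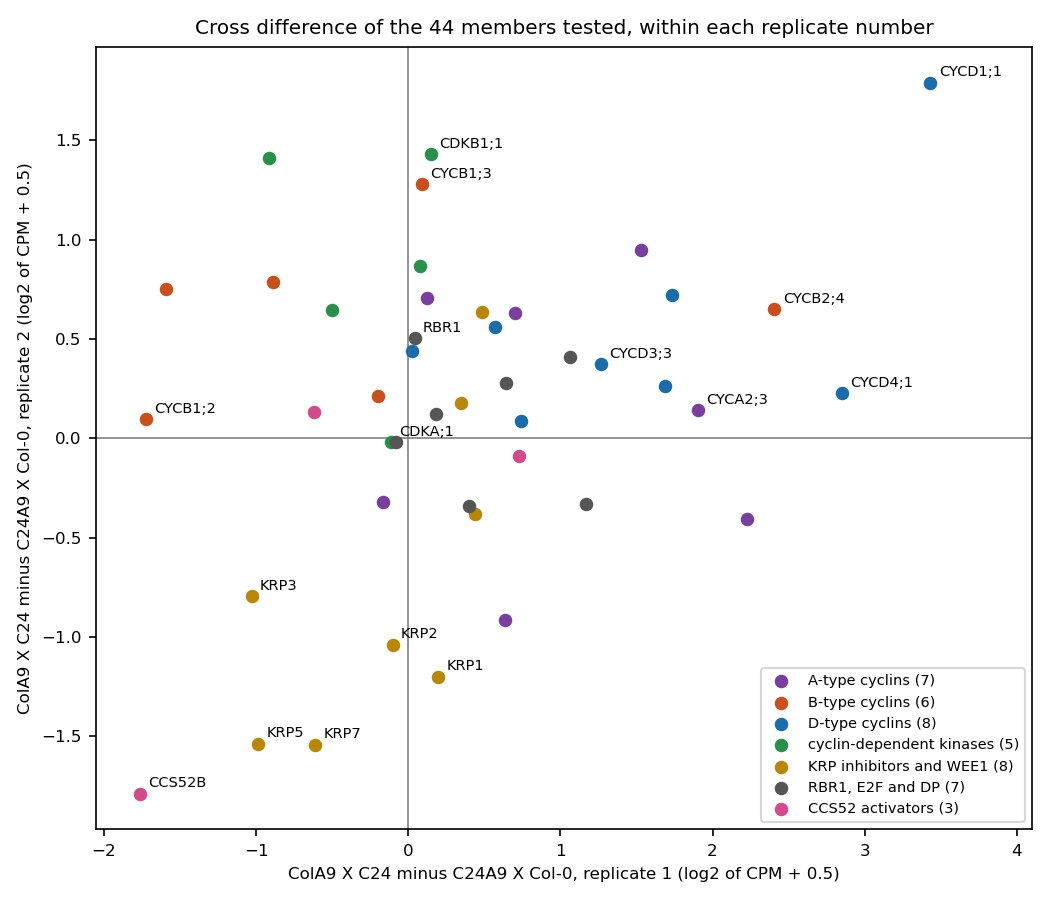
Difference of ColA9 X C24 minus C24A9 X Col-0 in log2(CPM + 0.5) within replicate 1 (horizontal) and within replicate 2 (vertical) for the 44 members tested, 1 point each, coloured by family. AT1G70210 lies at 3.43 and 1.79 and CCS52B at -1.76 and -1.79. All 8 D-type cyclins fall in the upper right quadrant, while KRP2, KRP3, KRP5 and KRP7 fall in the lower left.

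Replicate 1 of each cross has a further column of counts, marked N without an explanation, with 3876803 reads in ColA9 X C24 and 3395442 in C24A9 X Col-0. Their headers carry the names of the replicate 1 samples, and they were not counted as replicates. Whether they are repeat runs or differently prepared libraries is not given in the sources used here. Per 1000000 of the column total, 8 of 8 tested D-type cyclins and 7 of 7 A-type cyclins were higher in ColA9 X C24 in these columns, as were 75% of the tested members and 59.2% of all genes tested. AT1G70210 had 249 counts in the column of ColA9 X C24, against 10 in that of C24A9 X Col-0, and CCS52B had 20 against 70. KRP3, KRP5 and KRP7, which were lower in ColA9 X C24 in replicate 1, were not lower in these columns. KRP5 was at 17 in the column of ColA9 X C24, against 15.6 in that of C24A9 X Col-0, and KRP3 at 9.29 against 7.66. KRP7 was at 1.81 against 0.294, from only 7 and 1 counts, and KRP2 at 11.6 against 12.4. On the same scale, replicate 1 itself had KRP2 at 8.16 in ColA9 X C24 and 6.06 in C24A9 X Col-0, the other direction from its TMM-scaled CPM. In replicate 1 on that scale, 75.1% of all genes tested were higher in ColA9 X C24.

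Replicate 2, the treated library, was also compared with replicate 1 in a fit with the cross as a block, which shows how far a member's level moves with the library. Of the 44 members, 1 was called in edgeR's quasi-likelihood test, beside 9.91% of all genes (3.23% higher and 6.68% lower in replicate 2, with 24.6% at an unadjusted p under 0.05). The median log2 fold change of replicate 2 over replicate 1 was 0.58 over the members and 0.07 over all genes. The member called was CYCA3;1 (AT5G43080), which acts around the entry into S phase, with 12.3 CPM in replicate 2 and 3.69 in replicate 1 of ColA9 X C24, and 6.17 and 0.949 in C24A9 X Col-0 (log2 fold change 2.10 ± 0.61 (SE), adjusted p = 0.047). In DESeq2 its adjusted p was 0.148. All 6 tested B-type cyclins were higher in replicate 2 in both crosses, as were 36.7% of all genes, with a median log2 fold change of 1.76. Markers of the seed compartments also moved in this fit. Of 8 endosperm genes tested 2 were called higher and 1 lower in replicate 2, and of 3 embryo genes 1 was called higher. Of 8 seed coat genes 3 were called lower, as were 2 of 3 green tissue genes. The parts of the treatment and of seed composition in the values of the members were not tested. Of the 44 members tested, 23 were higher in replicate 2 in both crosses and 5 lower, where 32.8% of all genes were lower. AT3G11520 came next to AT5G43080 by adjusted p, with 13.7 CPM in replicate 2 and 2.30 in replicate 1 of ColA9 X C24, and 5.36 and 2.13 in C24A9 X Col-0 (log2 fold change 1.99 ± 0.62, adjusted p = 0.061). AT5G67260 had a log2 fold change of 1.38 ± 0.43 with an adjusted p of 0.0631. Of the members with a negative value, KRP5 (-1.21 ± 0.47), KRP6 (-0.51 ± 0.40) and KRP4 (-0.41 ± 0.34) had the lowest adjusted p, none under 0.05. In replicate 2 of ColA9 X C24 the B-type cyclins made up 9.21% of the summed CPM per kb of all members, against 2.65% in replicate 1. In C24A9 X Col-0 they made up 7.20% of the same sum in replicate 2 and 6.16% in replicate 1. The direction of the cross difference changed with the replicate number for some of them. AT5G06150 differed by -1.73 in replicate 1 and by 0.10 in replicate 2, and AT1G20610 by -1.60 and 0.75.

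**Figure D4:**
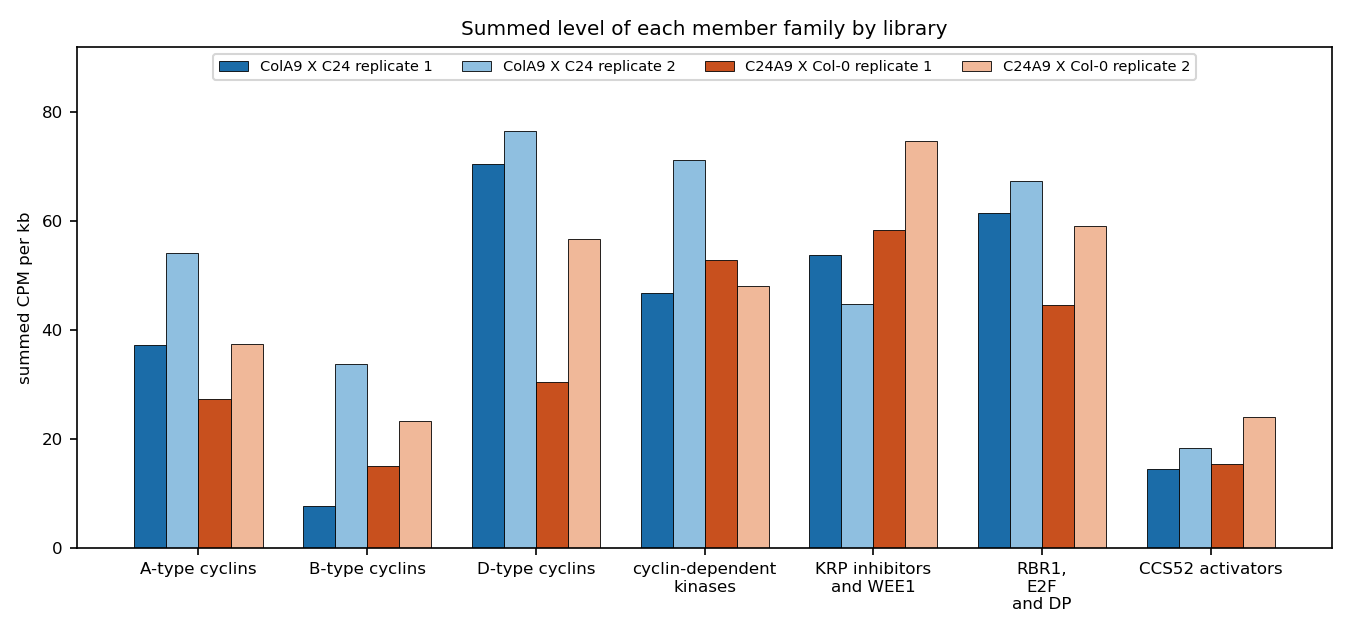
Summed level of each family in the 4 libraries, in CPM per kb, with all members of the family included and bars starting at 0. The D-type cyclins reach 70.4 and 76.6 in ColA9 X C24 (blue) and 30.4 and 56.7 in C24A9 X Col-0 (orange), whereas the B-type cyclins are lowest in replicate 1 of ColA9 X C24 (7.73) and highest in its replicate 2 (33.7).

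Other genes of the cell cycle were read from the same fits. Of 26 genes of replication licensing and S phase, 24 had a positive log2 fold change of ColA9 X C24 over C24A9 X Col-0. Of all 16779 genes tested, 8215 had one. The median of the 26 was 0.55 against -0.01 over all genes. Of the 26, 20 were higher within both replicate numbers, where 32.7% of all genes were. In edgeR's test 0 were called without the block, as were 0% of all genes, and 0 with it, beside 6.66% of all genes. Without the block 1 had an unadjusted p under 0.05, beside 7.46% of all genes. MCM7, a subunit of the replicative helicase, was at 66.8 and 77.7 CPM in ColA9 X C24, against 33.0 and 44.8 CPM in C24A9 X Col-0 (log2 fold change 0.89 ± 0.36 (SE), adjusted p = 0.664, or 0.0745 in the blocked fit). CDT1A, which licenses origins, was at 32.7 and 32.8 CPM in ColA9 X C24, against 10.9 and 20.9 CPM in C24A9 X Col-0 (adjusted p = 0.68, or 0.0726 in the blocked fit). An E2F site was found in 10 of the 26 promoters (38.5%). Without replicate 1 of C24A9 X Col-0, 18 of the 26 had a positive value.

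The SIAMESE-RELATED inhibitors, another family of CDK inhibitors, known from endoreduplicating leaf cells, lay on the other side. Of 9 genes, 5 were tested, all with a negative log2 fold change and a median of -1.61, and 2 were called lower in ColA9 X C24 in edgeR's blocked fit, beside 4.42% of all genes. SIM was at 80.8 and 20.7 CPM in ColA9 X C24, against 378 and 101 CPM in C24A9 X Col-0 (log2 fold change -2.24 ± 0.91 (SE), adjusted p = 0.677, or 0.000561 in the blocked fit). SMR1 was at 25.2 and 7.19 CPM in ColA9 X C24, against 64.8 and 34.7 CPM in C24A9 X Col-0 (log2 fold change -1.61 ± 0.66, adjusted p = 0.686, or 0.00539 in the blocked fit). Both were lower in replicate 2 than in replicate 1 of each cross, as was the sum of the seed coat markers. Of those 8 markers, 5 were lower in replicate 2 in both crosses and 1 was higher. The part of the marker difference in the values of SIM and SMR1 was not tested. The log2 fold change of SIM was -0.99 without replicate 1 of C24A9 X Col-0, -1.57 without replicate 2 of ColA9 X C24 and -3.54 without its replicate 1, and that of SMR1 was -1.08, -0.98 and -2.78. With library totals, or without replicate 1 of C24A9 X Col-0, 4 of the 5 were negative, and with library totals the blocked test called SIM and not SMR1.

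The remaining lists gave no called gene in either fit. Of 14 genes of the anaphase-promoting complex and its inhibitors, 11 had a positive log2 fold change. SAMBA, a negative regulator of the complex, was at 27.2 and 16.4 CPM in ColA9 X C24, against 9.96 and 8.60 CPM in C24A9 X Col-0 (log2 fold change 1.23 ± 0.43 (SE), adjusted p = 0.605, or 0.0748 in edgeR's blocked fit), and APC4, a subunit of it, had a log2 fold change of 0.94 ± 0.61. Of 13 genes of mitotic kinases, the spindle checkpoint and CDC20, 8 were positive, among them the Aurora kinase AUR2 (1.73 ± 0.94) and the CDK subunit CKS2 (0.69 ± 0.36). Of 8 MYB3R genes and their partners, 7 were positive, with MYB3R3 at 0.58 ± 0.54 and AT4G29000 at 0.47 ± 0.46. Of the 5 CDK-activating kinases and cyclin H, 3 were positive, with cyclin H (AT5G27620) at 0.50 ± 0.36 and the D-type CDK AT1G73690 at -0.23 ± 0.93. Of 7 further cyclin and E2F genes, 4 were tested and 2 were positive, with DEL3 at 0.34 ± 0.66 and DEL2 at -0.18 ± 0.78.

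**Figure D5:**
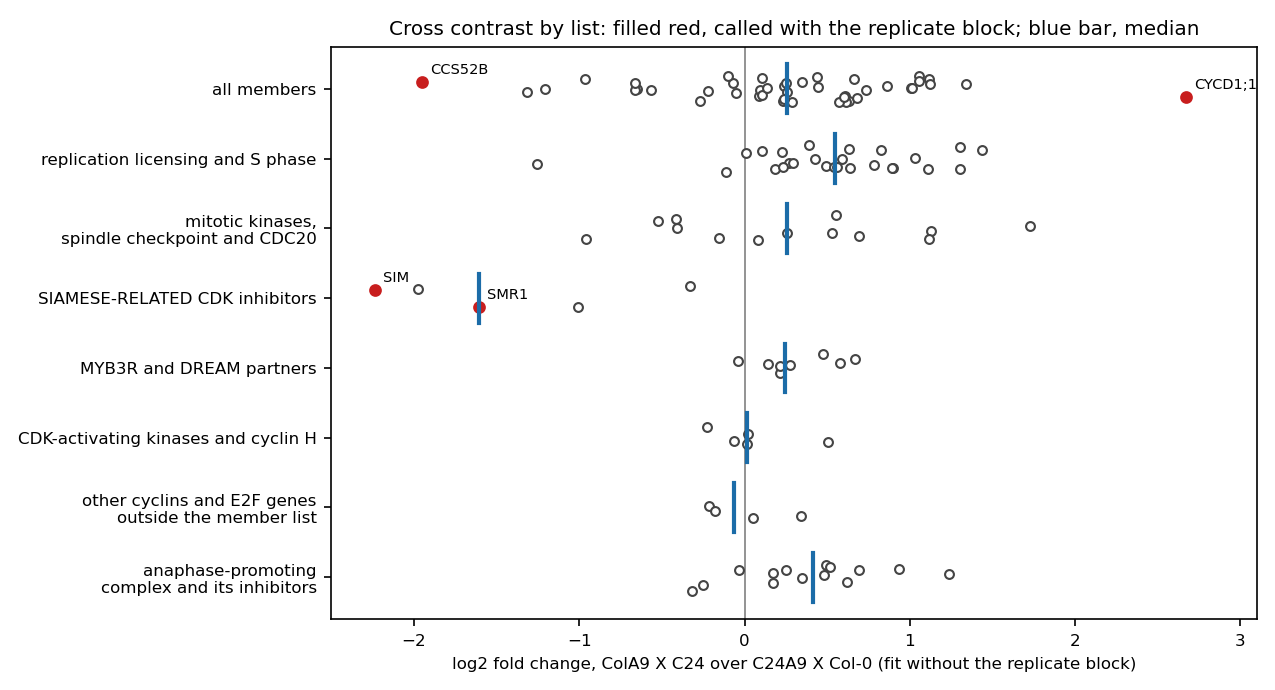
Log2 fold change of ColA9 X C24 over C24A9 X Col-0 in edgeR's fit without the replicate block, 1 point per tested gene, for the members and for 7 lists of other cell cycle genes, with vertical jitter only. Blue bars are medians (0.25 for the members, 0.55 for replication and S phase, -1.61 for the SIAMESE-RELATED genes), and filled red points are the 4 genes shown that were called with the block, AT1G70210, CCS52B, SIM and SMR1.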

How the data were processed

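The deposited table holds raw read counts of 33602 loci in 6 columns. The authors had trimmed adaptors and low-quality bases and aligned the reads to the TAIR10 cDNA models with BWA, with SAMtools 0.1.7 (submitters' processing notes). How reads that match several loci were counted, whether strand was used, and what the mark N on 2 columns means are not given in the sources used here. The methods and the labels differ in the read length they state. The 5 amplicon libraries were not analysed here.

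The 4 libraries held between 3538335 and 6498145 counts, and precision follows each gene's own counts. The labels call the replicates biological without saying which plants they came from, so p-values measure the spread between these libraries. The 16779 genes that reached 10 counts in 2 or more libraries were tested with edgeR 4.0.16 (R 4.3.3) by quasi-likelihood with TMM scaling and Benjamini-Hochberg adjustment, called under 0.05. Each SE is the fold change over the square root of its F value. CPM divides a count by the TMM-scaled library and the per-kilobase level by the longest TAIR10.1 transcript. A count of 0 was taken to allow 3 counts. With 2 libraries against 2, an exact two-sided test cannot give a p under 0.333.

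The shared treatment of replicate 2, stated in the methods, pairs the libraries by replicate number. Replicate 2 minus replicate 1 correlated between the crosses (r = 0.561 across 16779 genes and 0.145 across the 44 members tested, given without a p since genes are no independent replicates). The block brought the common dispersion to 0.0733, against 0.209 without it. With only 4 libraries, calls in the blocked fit lean on the dispersion estimated across genes. Alternatives were the replicate block, other scalings, DESeq2 1.42.0 (on the same counts), other filters and leaving out each library.

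The members, lists and tests were chosen with earlier results of these data known. The genes given with values are the 2 of highest level per family, members called in either fit, the 10 largest fold changes without overlap, CDKA;1, RBR1, the KRP and CCS52 genes, members at 0 or not tested, the 3 of lowest adjusted p per direction in the replicate contrast and the 2 of lowest p per pathway list. The remaining members given with values, the neighbouring loci, CDKB1;1, CYCD5;1, CYCA2;2 and the contrasts within B-type cyclins were added after their values were seen. Promoters and positions are RefSeq's TAIR10.1, and 50 of 50 members matched by locus.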

Additional observations from a re-analysis of the deposited data

How the results depend on the processing

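The replicate block, which pairs the libraries by number, moved the count of genes called between the crosses to 1118, against 0 without it, and the count of members to 2. With library totals only, 4 genes passed, with DESeq2 302 genes and 1 member, and without a filter on low counts 585 genes and 1 member. Leaving out 1 library gave between 0 and 76 genes and between 0 and 0 members, and a median of the members between 0.0218 and 0.74. Combined with the block, alternatives chosen after seeing the data gave 1522 genes and 2 members with median-of-ratios factors, 194 and 0 with library totals, 819 and 1 in DESeq2, 1795 and 3 without the filter, where CYCD4;1 was added (adjusted p = 0.045 in edgeR's test), and 1094 and 0 with 20 counts in all 4 libraries. With the filter of 10 counts in 2 libraries, the block changed the calls of CYCD1;1, CCS52B, SIM and SMR1 and of no other named gene. Without the block, CYCD1;1 passed in DESeq2 (adjusted p = 0.0155), and without both the block and the filter CYCD1;1, SIM and SMR1 passed in edgeR's test (adjusted p = 0.000144, 0.0138 and 0.0395).

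In the replicate contrast, no cross block gave 0 genes and 0 members, median-of-ratios factors 3 members, library totals 245 genes, 0 members and a median of 1.10, DESeq2 0 members and no filter 3 members. Library totals moved the median of all genes by 0.30 in the cross contrast and by 0.52 in the replicate contrast.

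The direction changed only for genes that were not called. With library totals the log2 fold change between the crosses was 0.25 for CDKA;1, 0.13 for CCS52A2, 0.0605 for CDKD;1 and 0.0403 for DEL2, and with the block added 0.28, 0.0837, 0.0876 and 0.24. In the replicate contrast library totals gave 0.0144 for KRP6 and 0.11 for KRP4. KRP6 was at -0.0062 with the block in DESeq2. With 1 library left out, the values ranged between -0.44 and 0.49 for KRP6, -0.64 and 0.12 for CCS52A2, -0.79 and 0.21 for CDKD;1, -0.60 and 0.48 for DEL2, -0.73 and 0.97 for DEL3, -0.14 and 0.021 for CDKA;1, -0.16 and 0.84 for CCS52A1, and -1.15 and 0.13 for KRP1. The cause of these changes was not tested. Where 1 library was left out, the lone library of its cross was taken to vary like the other cross.

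Depth limits the low members: 6 were not tested, and the 4 B-type cyclins CYCB2;1, CYCB2;2, CYCB2;4 and CYCB3;1 had at most 17 counts in any library. With the stricter filter of 20 counts in all 4 libraries only 2 D-type cyclins were left, CYCD2;1 and CYCD3;3, both with a positive log2 fold change. Of the KRP genes, KRP1, KRP2, KRP4 and KRP6 were left, and only 2 of them had a negative value. The 2 treated libraries and the 2 untreated ones give 1 library per cross and treatment, so an effect of the treatment that differs between the crosses could not be fitted.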

Other observations

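The replication genes also moved with the replicate number. Of the 26 genes of replication licensing and S phase, 3 were called higher and 1 lower in replicate 2 in edgeR's fit that blocks on the cross, beside 3.23% and 6.68% of all genes. ORC6, a subunit of the origin recognition complex, had a log2 fold change of replicate 2 over replicate 1 of 1.93 (adjusted p = 0.012), and POL2A and POL2B, catalytic subunits of DNA polymerase epsilon, had 1.69 and 3.89. TSO2, a small subunit of ribonucleotide reductase, was at 40.2 CPM in replicate 2 and 83.7 in replicate 1 of ColA9 X C24, and at 39.0 and 84.7 in C24A9 X Col-0, while it did not separate the crosses (log2 fold change 0.01 ± 0.56 (SE)). CKS1, a CDK docking subunit, was at 21.1 CPM in replicate 2 and 45.3 in replicate 1 of ColA9 X C24, and at 23.2 and 72.8 in C24A9 X Col-0. These genes were named after their values were seen.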
